A study of Mus musculus with 9 samples.

Results

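Genes for neurotransmitter receptors were examined in TEC (thymic epithelial cells), which support and select T cells in the thymus. The genes were chosen by symbol: ionotropic glutamate receptor subunits (Gria, Grid, Grik, Grin), metabotropic glutamate receptors (Grm), GABA-A and GABA-B receptor subunits (Gabr, Gabbr), nicotinic and muscarinic acetylcholine receptors (Chrn, Chrm), serotonin receptors (Htr), dopamine receptors (Drd) and glycine receptor subunits (Glr). Of 15080 genes in the count table, 32 belonged to these families. The libraries came from young male wild-type mice whose thymus had been injected 10 days earlier either with 1 µg of recombinant amphiregulin, called rAREG, which activates the EGF receptor (5 libraries), or with its vehicle, PBS (4 libraries). No other allele or agent separates the groups in the labels. The labels do not tie libraries to single mice, so p-values measure the spread between libraries, which may be technical. RNA was counted by MARS-seq, a 3′-end method in which a unique molecular identifier (UMI) marks each captured RNA molecule, and libraries held 1523246 to 2159115 UMIs. Levels are given as CPM, UMI counts per 1000000 after scaling of the libraries. Since 1 UMI stands for the 3′ end of 1 molecule, levels were not divided by gene length.

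Neurotransmitter receptors are membrane proteins by which neurons and muscle fibres sense glutamate, GABA, glycine, acetylcholine, serotonin or dopamine. Many are ion channels built from several subunits, each the product of its own gene, and others signal through G proteins. Medullary TEC are known for expressing genes of other tissues, called tissue-restricted antigens, so that T cells reactive to them can be removed or diverted. Aire and Fezf2 are regulators of this expression, and some medullary TEC take on features of other tissues, muscle among them. Whether a receptor gene depends on Aire or Fezf2 was not measured in these libraries.

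Most of the receptor repertoire was low or had no row in the table. GENCODE M21 (GRCm38) annotates 92 protein-coding genes that match the symbols, and 32 of them (34.8%) had a row, against 14219 of 21924 protein-coding symbols (64.9%). Each row of the table reached at least 6 UMIs in some library. The other 60 were not analysed here. The nicotinic subunits had the most rows, 11 of 16. The GABA-A subunits had 7 of 19, the kainate subunits 3 of 5, the serotonin receptors 3 of 14, and the NMDA subunits and the metabotropic glutamate receptors 2 each, of 7 and 8. The AMPA, delta, GABA-B and glycine families had 1 row each, and none of the 5 muscarinic or the 5 dopamine receptors had a row analysed here. The median level of the 32 genes was 3.76 CPM, against 16.5 CPM over all 15080 genes. Of the 32, 9 averaged at least 10 CPM and 19 averaged under 5 CPM.

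**Figure D1:**
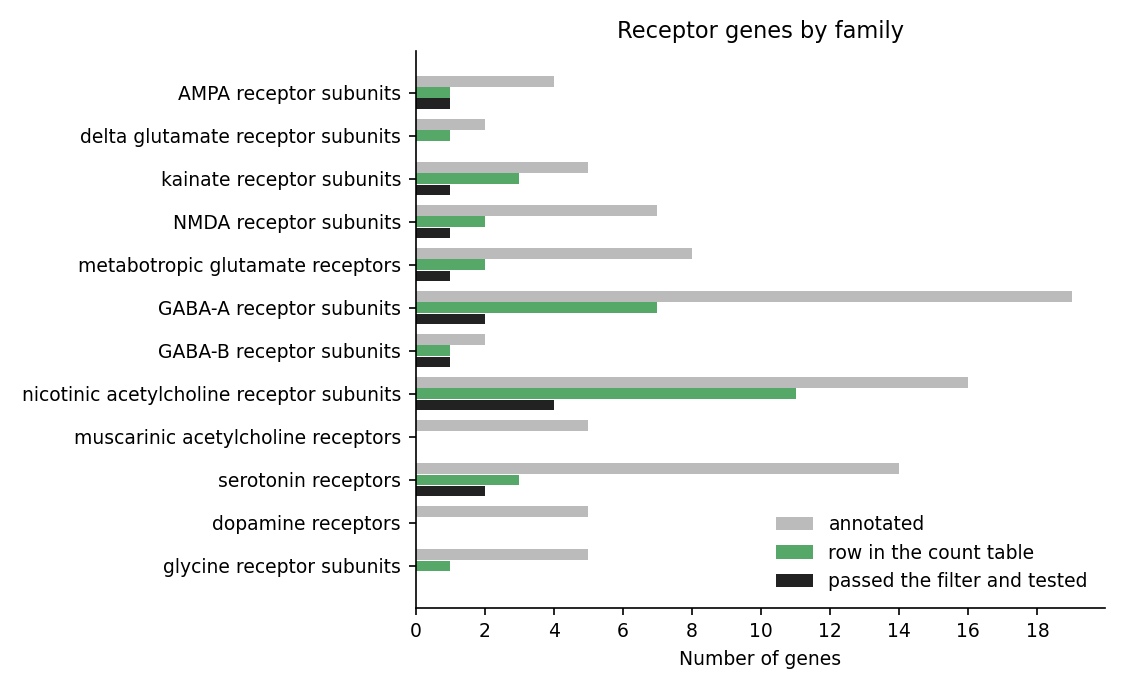
Number of genes in each receptor family that GENCODE M21 annotates (grey), that had a row in the count table (green) and that passed the filter on low counts (black). Nicotinic subunits had 11 rows of 16 annotated genes, and the muscarinic and dopamine receptors had none.

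The sorted cells carried epithelial markers, and all 13 genes of a TEC list (among them Epcam, Krt5, Krt8, Foxn1 and Cd74) were tested. Epcam was at 216 ± 21.2 CPM in vehicle (SD, n = 4) and 211 ± 13.5 in rAREG (SD, n = 5), Cd74, the most abundant of the list, was at 10028 ± 1053 and 10765 ± 609 CPM, and none of the 13 passed the test. Of 15 neuron and glia markers 14 had a row, with a summed level of 190 to 209 CPM in vehicle and 192 to 257 in rAREG, and the synaptic vesicle gene Syt1 was the most abundant, at 71.4 ± 12.6 and 82.2 ± 16.3 CPM. The astrocyte marker Gfap had no row analysed here. Of 16 thymocyte markers 13 had a row, with sums of 117 to 179 and 121 to 223 CPM and Tcf7 the most abundant, at 30.4 ± 6.07 and 31.8 ± 7.01 CPM. Cd3e, Rag2 and Cd28 had no row analysed here.

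Only Grin2c passed the test among the receptor genes tested. The filter on low counts left 13 of the 32 to test among 11636 genes, so these 13 are the more abundant ones. With edgeR's quasi-likelihood test, Grin2c was higher in rAREG at an adjusted p under 0.05 and none was lower, and the other 12 did not pass. Not passing does not show that a gene was unchanged. Of all genes tested, 0.559% were called higher and 0.49% lower. A measured difference in these bulk libraries may come from more cells of a type or from more RNA per cell, and these cannot be told apart. At an unadjusted p under 0.05 the receptor genes higher in rAREG were Grin2c and Grm4, that is 2 of 13, against 6.82% of all genes, and none was lower, against 6.44%. In either direction the share of all genes was 13.3%. The same 2 were the ones whose libraries did not overlap between the groups, against 2.48% of all genes that did so with rAREG higher and 2.44% with rAREG lower. Grm4 passed the filter through rAREG, with 1 vehicle and 5 rAREG libraries above its level. The filter thus sets part of both counts, and nothing is read from them. In a fit without the filter, Grin2c alone of all 32 passed, against 0.855% of 15080 genes, and Glrb, Grin2c and Grm4 had an unadjusted p under 0.05, against 11.9%. The authors' deposited table also lists Grin2c alone of the 32 with an adjusted p under 0.05, among 168 genes.

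Grin2c encodes GluN2C, an NMDA receptor subunit that in the brain is best known from cerebellar granule cells. It was the most abundant of the 32 genes, above 86.4% of all genes in the table. Its levels were 45.8, 74.3, 59.2 and 76.3 CPM in vehicle replicates 1 to 4 and 103, 121, 87.7, 104 and 106 CPM in rAREG replicates 1 to 5. The lowest rAREG library lay above the highest vehicle library. The means were 63.9 ± 14.3 CPM (SD, n = 4) and 104 ± 11.9 CPM (SD, n = 5), which is 1.64-fold or 0.71 ± 0.14 (SE) on the log2 scale (edgeR, adjusted p = 0.019). The call was lost without vehicle replicate 1 (log2 fold change 0.58, edgeR adjusted p = 0.076), vehicle replicate 3 (0.68, adjusted p = 0.053) or rAREG replicate 2 (0.65, adjusted p = 0.067). The same happened in a fit, added after the values were known, that took a score of 18 dissociation-response genes into account, where the log2 fold change was 0.81 ± 0.18 (edgeR, adjusted p = 0.053). Over 20 alternatives the adjusted p of Grin2c ran from 0.0028 (DESeq2) to 0.076. That score, a mean of log2 CPM, ran from 10.2 to 10.6 in vehicle and from 9.68 to 10.4 in rAREG, and its part in the result was not tested further.

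The gene lies on chromosome 11 from 115249169 to 115267243 on the minus strand (GRCm38), and overlaps only an annotated miRNA gene on the other strand. Its promoter, 250 bases before to 50 after the start, is shown because Grin2c is the single receptor gene that passed the test. Those of the 3 next most abundant receptor genes, none of which passed, are shown beside it. All are from RefSeq on GRCm38.p6, at chr11:115267194-115267493 (minus strand) for Grin2c, chr19:36057311-36057610 (minus) for Htr7, chr17:37045716-37046015 (plus) for Gabbr1 and chr7:25072320-25072619 (minus) for Grik5. Capitals mark matches on either strand to GGGCGG, the GC box.
Grin2c: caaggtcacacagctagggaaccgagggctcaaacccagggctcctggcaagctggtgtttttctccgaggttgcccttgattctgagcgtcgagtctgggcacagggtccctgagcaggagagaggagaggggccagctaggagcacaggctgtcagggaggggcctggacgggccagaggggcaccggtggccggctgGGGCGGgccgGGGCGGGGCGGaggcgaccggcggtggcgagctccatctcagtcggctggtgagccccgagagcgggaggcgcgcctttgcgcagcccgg
Htr7: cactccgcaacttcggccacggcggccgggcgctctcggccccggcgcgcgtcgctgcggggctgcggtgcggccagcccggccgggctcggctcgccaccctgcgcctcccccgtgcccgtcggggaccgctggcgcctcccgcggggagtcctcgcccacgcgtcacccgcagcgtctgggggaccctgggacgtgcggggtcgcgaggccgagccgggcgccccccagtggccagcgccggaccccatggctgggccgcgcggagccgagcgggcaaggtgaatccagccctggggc
Gabbr1: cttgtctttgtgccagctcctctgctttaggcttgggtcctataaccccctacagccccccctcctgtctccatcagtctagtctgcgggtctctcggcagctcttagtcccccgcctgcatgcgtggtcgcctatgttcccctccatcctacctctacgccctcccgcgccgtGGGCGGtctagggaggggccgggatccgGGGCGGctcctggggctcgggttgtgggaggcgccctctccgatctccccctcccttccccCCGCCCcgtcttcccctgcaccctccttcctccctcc
Grik5: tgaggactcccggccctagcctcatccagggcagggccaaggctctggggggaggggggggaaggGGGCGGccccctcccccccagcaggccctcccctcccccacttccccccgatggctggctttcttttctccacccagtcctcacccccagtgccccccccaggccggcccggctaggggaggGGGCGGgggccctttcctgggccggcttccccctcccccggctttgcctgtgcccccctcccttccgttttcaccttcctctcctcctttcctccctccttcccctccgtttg
Grin2c and Gabbr1 held 3 matches each, Grik5 held 2 and Htr7 held 0. In Grin2c they start 50, 40 and 35 bases before the gene's start, and the last pair shares 1 base. GC content was 70.0% for Grin2c, 81.0% for Htr7, 67.3% for Gabbr1 and 72% for Grik5. Of the 32 genes, 24 had an entry, with 29 promoters, of which 51.7% held a GC box, against 52.0% of 50 promoters of receptor genes without a row and 35.7% of all 32851 promoters. The median GC content was 59.3%, 57.2% and 52.7%. None of 5 other motifs, searched on both strands, had a match in the 4 promoters shown, which says only that those letters are not in these windows. The TATA box, TATAAA, was in 6.90% of the 29 promoters, 8.0% of the 50 without a row and 13.6% of all promoters. In the same order, the AP-1 site, spelled TGANTCA, was in 3.45%, 8.0% and 7.81%. The left part of the RE1 site of the repressor REST, spelled TCAGCACC, was in 0%, 4.0% and 1.65%. The N-box, known from synaptic genes of muscle and spelled CCGGAA, was in 3.45%, 6.0% and 14.9%. The E-box of myogenic factors, spelled CAGCTG, was in 17.2%, 8.0% and 16.3%. Of the 29, 3.45% is 1 promoter. A match describes the letters and is not shown to be a site.

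**Figure D2:**
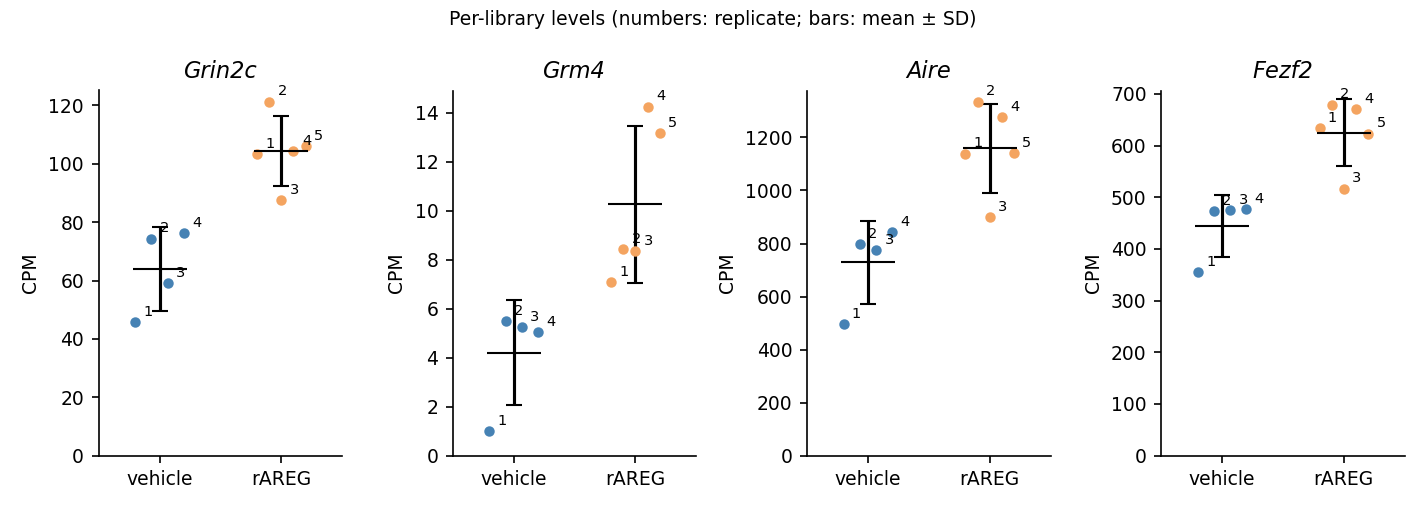
CPM of Grin2c, Grm4, Aire and Fezf2 in each library, with replicate numbers beside the points and the mean ± SD as bars (4 vehicle and 5 rAREG libraries). Vehicle replicate 1 was the lowest library for all 4 genes, at 45.8, 1.01, 497 and 355 CPM.

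Grin1 encodes GluN1, the subunit that every NMDA receptor needs. It was far lower than Grin2c, at 2.01, 4.40, 1.43 and 2.24 CPM in vehicle and 5.16, 3.69, 3.71, 2.54 and 5.27 CPM in rAREG. Each library held 16.9 to 41.3 Grin2c UMIs per Grin1 UMI. Grin1 did not pass the filter. In a fit without a filter its log2 fold change was 0.68 ± 0.46 (SE; edgeR, adjusted p = 0.59), and its groups overlapped.

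The regulators of tissue-restricted antigens were measured in the same libraries. Of 10 genes in that list 9 were tested, Aire and Fezf2 rose (edgeR, adjusted p = 0.037 and 0.042) and 7 did not pass, with a list median of 0.05. The level of Aire was 497, 798, 775 and 844 CPM in vehicle and 1139, 1335, 899, 1278 and 1142 CPM in rAREG. Fezf2 was at 355, 473, 475 and 477 CPM in vehicle and 634, 679, 517, 671 and 623 CPM in rAREG. As with Grin2c, vehicle replicate 1 was the lowest library of all, rAREG replicate 2 the highest, and rAREG replicate 3 the lowest of its group.

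The ratio of Grin2c to Aire showed little spread across the 9 libraries. For every 100 Aire UMIs there were 9.22, 9.31, 7.64 and 9.04 Grin2c UMIs in vehicle and 9.06, 9.09, 9.75, 8.16 and 9.28 in rAREG. The groups overlapped, with means of 8.80 ± 0.785 (SD, n = 4) and 9.07 ± 0.578 (SD, n = 5; two-sided exact permutation test over 126 splits, p = 0.54, 0.54 after Benjamini-Hochberg adjustment over 2 ratios). Per 100 Fezf2 UMIs the means were 14.3 ± 1.84 (n = 4) and 16.7 ± 0.869 (n = 5), also with overlap (exact permutation test, p = 0.048, adjusted 0.095). The ratios were chosen after the values had been seen. Grin2c and Aire were by then known to rise by like amounts (log2 fold changes 0.71 and 0.67). A flat ratio was therefore set beforehand, and nothing is read from these p-values. Whether Aire has a part in the level of Grin2c was not tested.

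Grm4 and Grm8 encode metabotropic glutamate receptors that couple to inhibitory G proteins, mostly at presynaptic terminals. Grm4 was at 1.01, 5.50, 5.25 and 5.05 CPM in vehicle and 7.10, 8.44, 8.35, 14.2 and 13.2 CPM in rAREG. The groups did not overlap, and vehicle replicate 1 held 2 UMIs. Its log2 fold change was 1.29 ± 0.37 (SE; edgeR, adjusted p = 0.099) and did not pass, and without vehicle replicate 1 it was 0.96 ± 0.34. Its adjusted p ran from 0.083 to 0.30 over the alternatives that gave one, and DESeq2 gave none. Grm4 passed the filter through rAREG, since 1 of 4 vehicle and 5 of 5 rAREG libraries lay above the filter's 5.25 CPM. That cutoff is set on CPM before scaling of the libraries, unlike the levels given here. Grm8 did not pass the filter, with 4.53, 2.75, 1.91 and 7.29 CPM in vehicle and 1.29, 1.05, 2.78, 3.05 and 2.63 CPM in rAREG, and the groups overlapped.

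**Figure D3:**
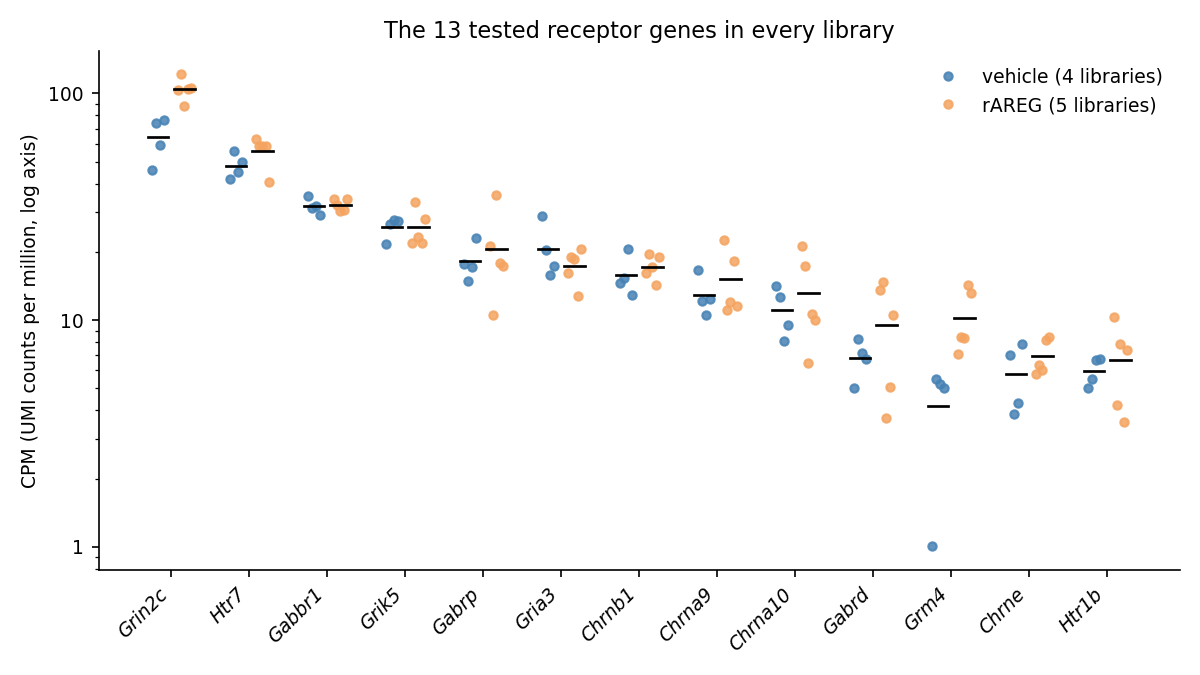
CPM of the 13 tested receptor genes in every library, on a log axis and ordered by mean, with 4 vehicle (blue) and 5 rAREG (light orange) libraries and a line at each group mean. The groups are apart for Grin2c and Grm4 and overlap for the other 11.

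Among the other ionotropic glutamate receptors, Gria3, which encodes an AMPA receptor subunit, and Grik5, which encodes the kainate subunit GluK5, were the most abundant of their families. Gria3 was at 28.7, 20.4, 15.8 and 17.4 CPM in vehicle and 16.1, 19.0, 18.6, 12.7 and 20.6 CPM in rAREG. Grik5 was at 21.6, 26.4, 27.7 and 27.5 CPM and at 21.9, 33.2, 23.2, 21.9 and 27.9 CPM. Neither passed, and both overlapped between the groups, the log2 fold changes being −0.24 ± 0.21 for Gria3 (edgeR, adjusted p = 0.67) and −0.0075 ± 0.17 for Grik5 (adjusted p = 0.99; both ± SE). The sign of Grik5 turned with upper-quartile scaling and with total counts. Of GluK5's kainate partners, Grik3 averaged 1.31 ± 0.326 CPM in vehicle and 1.90 ± 0.777 in rAREG, and Grik1 and Grik2 were not analysed here. Grik4, the other high-affinity kainate subunit gene, averaged 3.60 ± 1.95 and 4.44 ± 1.07 CPM. Grid1, for the delta receptor GluD1, was at 1.51, 3.85, 3.82 and 2.80 CPM in vehicle and 3.23, 5.27, 4.17, 1.02 and 2.63 CPM in rAREG, with overlap. These 3 did not pass the filter.

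Gabbr1, the gene for the agonist-binding subunit of the GABA-B receptor, had the smallest spread, relative to its mean, of the tested receptor genes in both groups. It was at 35.2, 31.4, 32.0 and 29.2 CPM in vehicle and 34.2, 32.2, 30.1, 30.5 and 34.3 CPM in rAREG. The groups overlapped throughout, and the log2 fold change was 0.0097 ± 0.14 (SE; edgeR, adjusted p = 0.99). Gabbr2, its partner at the cell surface, was not analysed here.

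Of the GABA-A subunits, which form chloride channels, Gabrp and Gabrd were tested. Gabrp encodes the pi subunit, known from epithelia outside the brain, and was at 17.6, 14.9, 17.2 and 23.0 CPM in vehicle and 21.3, 10.5, 35.7, 17.8 and 17.4 CPM in rAREG. Gabrd, for the extrasynaptic delta subunit, was at 5.03, 8.26, 7.16 and 6.73 CPM and at 13.5, 14.8, 3.71, 5.09 and 10.5 CPM. Both overlapped, and rAREG replicate 3 was the highest library for Gabrp and the lowest for Gabrd. Their log2 fold changes of 0.19 ± 0.27 and 0.46 ± 0.37 (SE) did not pass (edgeR, adjusted p = 0.82 and 0.63), and that of Gabrp was −0.11 without rAREG replicate 3. Gabre averaged 3.35 ± 1.00 CPM in vehicle and 2.80 ± 0.899 in rAREG. Gabra5, Gabrb2 and Gabrr1, a rho subunit known from the retina, averaged 0.803 to 2.86 CPM in either group. No gamma subunit gene, needed for most synaptic GABA-A receptors, was analysed here. Glrb, for the glycine receptor subunit that binds the scaffold gephyrin, was at 8.05, 4.40, 2.86 and 5.05 CPM in vehicle and 3.23, 2.11, 2.78, 3.05 and 2.63 CPM in rAREG. It did not pass the filter, its groups overlapped, and in the fit without a filter its log2 fold change was −0.88 ± 0.41 (SE; edgeR, adjusted p = 0.40).

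**Figure D4:**
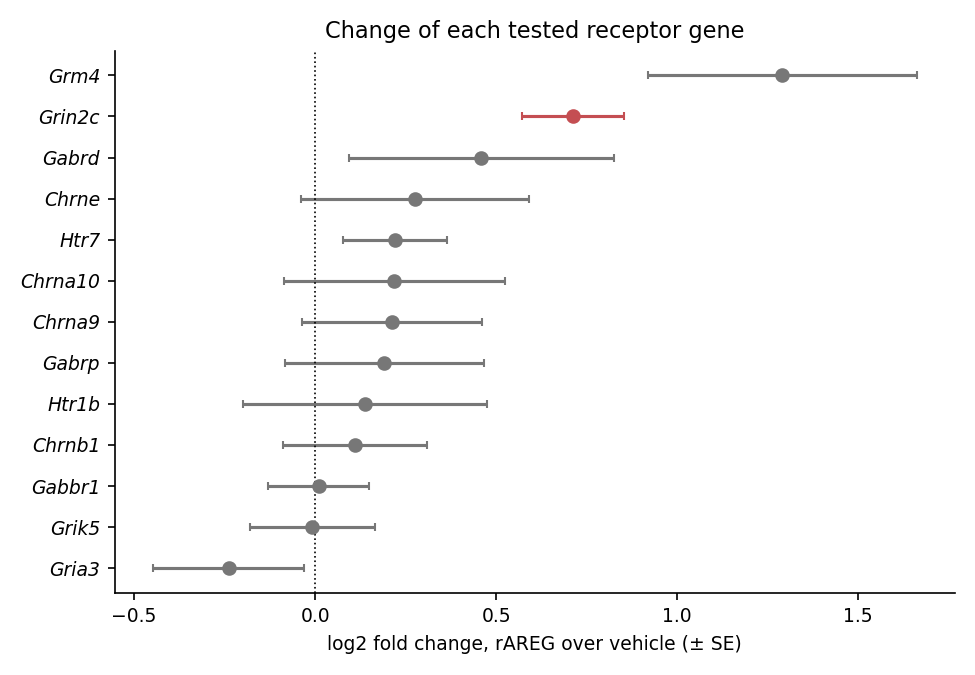
Log2 fold change of rAREG over vehicle ± SE for the 13 tested receptor genes, with Grin2c, which passed edgeR's test, in red and the others in grey. Grm4 had the largest value, at 1.29 ± 0.37, and the widest error but did not pass.

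The nicotinic receptor genes fall into muscle-type subunits and neuronal-type subunits, of which alpha 9 and alpha 10 are best known from cochlear hair cells. Chrna9 was at 16.6, 12.1, 10.5 and 12.3 CPM in vehicle and 22.6, 11.1, 12.1, 18.3 and 11.6 CPM in rAREG. Its partner Chrna10 was at 14.1, 12.7, 8.12 and 9.53 CPM and at 21.3, 17.4, 6.49, 10.7 and 10.0 CPM. Both were at like levels and highest in rAREG replicate 1, and neither passed, the log2 fold changes being 0.21 ± 0.25 for Chrna9 (edgeR, adjusted p = 0.77) and 0.22 ± 0.30 for Chrna10 (adjusted p = 0.82; both ± SE). Chrna10 overlaps Art1 on the opposite strand, and whether the counting used strand is not known from the sources used, so its counts are uncertain. This holds too for Chrnb2 with Adar, for Htr1b with an antisense gene, and for Gabra5. Chrne, Chrnb4, Grin1, Grid1, Grm4, Grm8 and Htr3a overlap opposite-strand genes without a row in the count table, and the same doubt applies to them. Chrna4 and Chrnb2, for the main brain pair, averaged 3.13 ± 2.16 and 4.92 ± 2.15 CPM in vehicle and 4.18 ± 1.89 and 4.37 ± 2.02 in rAREG. Chrna2, Chrna5 and Chrnb4 averaged 1.71 to 2.47 CPM in either group.

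Muscle-type subunits make up the receptor of the neuromuscular junction, where the epsilon subunit (Chrne) replaces the fetal gamma subunit (Chrng). Chrnb1, the beta subunit, was the most abundant nicotinic gene, at 14.6, 15.4, 20.5 and 12.9 CPM in vehicle and 16.1, 19.5, 17.2, 14.2 and 19.0 CPM in rAREG. Chrne was at 7.04, 3.85, 4.30 and 7.85 CPM and at 5.81, 6.33, 6.03, 8.14 and 8.43 CPM. Both overlapped between the groups and neither passed, the log2 fold changes being 0.11 ± 0.20 for Chrnb1 (edgeR, adjusted p = 0.87) and 0.28 ± 0.31 for Chrne (adjusted p = 0.76; both ± SE). Chrnd, the delta subunit, and Chrng did not pass the filter, at 1.60 ± 0.818 and 2.04 ± 1.03 CPM in vehicle (SD, n = 4) and 2.45 ± 1.42 and 3.32 ± 1.67 CPM in rAREG (SD, n = 5). Their highest library was rAREG replicate 5, with 4.74 and 5.27 CPM. The same library had the highest sum over a list of muscle genes, of which 18 of 19 had a row: 178, 140, 148 and 188 CPM in vehicle and 295, 239, 163, 300 and 380 CPM in rAREG. No gene of that list passed (edgeR), its 15 tested members had a median log2 fold change of 0.81, and Mylpf, a myosin light chain gene, was its most abundant at 33.2 ± 12.0 and 43.3 ± 13.4 CPM. All 15 were above 0, against 49.2% of all genes, and 8 had an unadjusted p under 0.05 (edgeR), against 13.3%. Some, such as Neb at 3.36 to 4.30 CPM in vehicle, lay under the filter's 5.25 CPM there, so the filter sets part of these counts. Myod1 had no row analysed here. The part of muscle-like cells in the receptor values was not tested.

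Htr7, for a serotonin receptor that stimulates adenylyl cyclase, was the second most abundant of the 32 genes. Its levels were 41.8, 55.6, 44.9 and 49.9 CPM in vehicle and 63.2, 58.5, 58.9, 58.5 and 40.6 CPM in rAREG. In rAREG, 4 of 5 libraries lay above the highest vehicle library, and replicate 5 lay below all of them. The log2 fold change was 0.22 ± 0.14 (SE; edgeR, adjusted p = 0.53). Htr1b, for a receptor that inhibits adenylyl cyclase, averaged 5.99 ± 0.853 CPM in vehicle and 6.67 ± 2.78 in rAREG (log2 fold change 0.14 ± 0.34, edgeR adjusted p = 0.91). Htr3a, for a serotonin-gated channel, had 0 to 2 UMIs in 7 of 9 libraries, and 6 and 10 in rAREG replicates 4 and 5.

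**Figure D5:**
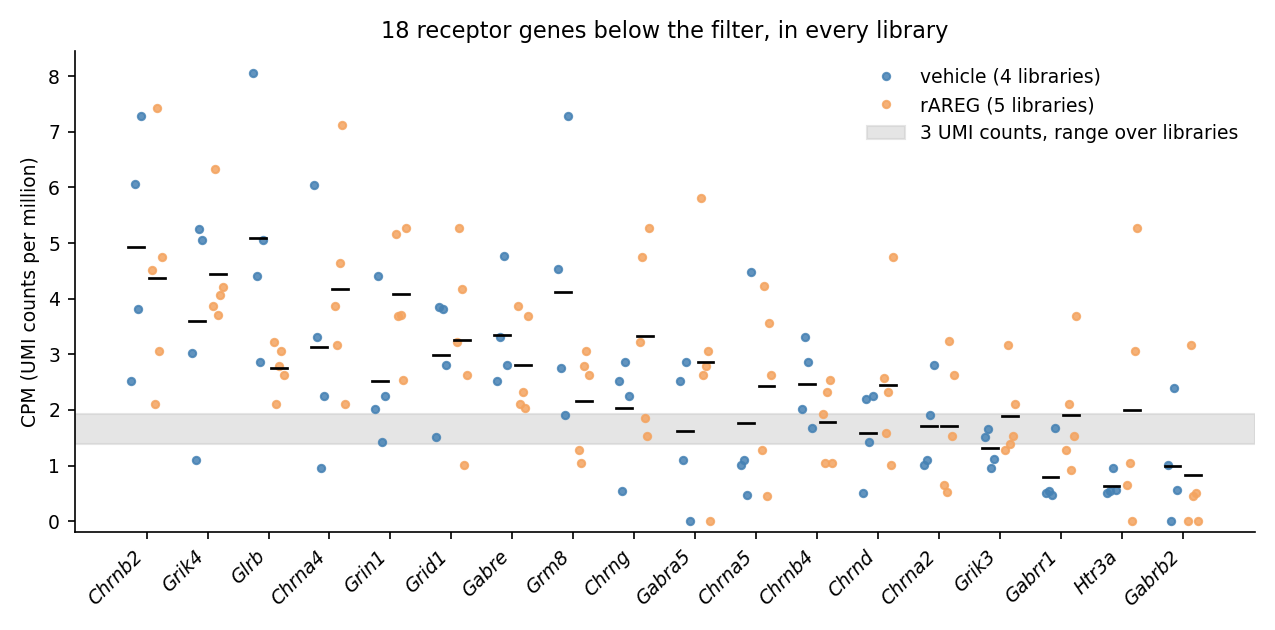
CPM of 18 of the 19 receptor genes that did not pass the filter, in 4 vehicle (blue) and 5 rAREG (light orange) libraries, with a line at each group mean. The grey band is the range over libraries of the level that 3 UMIs correspond to, 1.39 to 1.94 CPM, the limit that a count of 0 allows.

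Counts of 0 occurred for 4 genes, among them Gabra5, Gabrb2 and Htr3a, while the other 28 had at least 1 UMI in every library. A count of 0 allows a level of up to 1.39 to 1.94 CPM, depending on the library, for counting error only. The 32 genes together held 591 to 640 UMIs per vehicle library and 630 to 787 per rAREG library. Their summed level was 297, 330, 306 and 337 CPM in vehicle and 406, 407, 365, 367 and 385 CPM in rAREG, so the groups did not overlap. Grin2c made up 15.4% to 22.6% of these UMIs in vehicle and 24.0% to 29.8% in rAREG. Without it the sums were 252, 255, 246 and 261 CPM and 303, 286, 277, 262 and 279 CPM. The means were then 254 ± 6.08 (SD, n = 4) and 282 ± 14.8 (SD, n = 5). The 13 tested genes had a median log2 fold change of 0.21, against −0.0054 over all genes tested, and 11 of the 13 were above 0, against 49.2% of all genes. Grm4 and Chrne passed the filter mostly through rAREG, with 5 of 5 rAREG libraries above its level against 1 of 4 vehicle libraries for Grm4 and 2 of 4 for Chrne, so the filter sets part of this count and median and nothing is read from them. Gabbr1, Gabrp and Htr1b, 3 of the 11, turned sign when some single library was left out.

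Many receptor genes lie near other receptor genes, of their own or of another family. The annotated genes formed 11 clusters of neighbours within 1000 kb, 9 of them with at least 1 row, and 13 of the 32 genes lay in one. Chrnd and Chrng on chromosome 1 and Chrnb1 and Chrne on chromosome 11 both had all members of the cluster in the table. On chromosome 9 Chrna5 and Chrnb4 had rows and Chrna3 did not, and the 4 GABA-A genes of chromosome 5 had none analysed here.

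Genes that work with these receptors were read from the same test, and none of their 4 lists held a gene that passed. Of 34 genes of transmitter synthesis and transport 15 were tested, with a median log2 fold change of 0.34, 10 of them above 0 and 8 at an unadjusted p under 0.05. Slc6a4, the serotonin transporter, was at 41.0 ± 7.42 CPM in vehicle (SD, n = 4) and 58.9 ± 4.27 in rAREG (SD, n = 5; edgeR, adjusted p = 0.069). Ache, for acetylcholinesterase, averaged 214 ± 31.2 and 270 ± 46.2 CPM (edgeR, adjusted p = 0.24). Gad1, which makes GABA from glutamate, averaged 13.9 ± 3.18 and 20.3 ± 4.86 CPM (adjusted p = 0.28).

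Of 30 regulators of ionotropic glutamate receptors 12 were tested (median 0.02). Nptx2, a secreted pentraxin that gathers AMPA receptors, was at 33.4 ± 4.46 CPM in vehicle (SD, n = 4) and 50.4 ± 7.63 in rAREG (SD, n = 5; edgeR, adjusted p = 0.057), and Grina, the most abundant, at 359 ± 37.6 and 334 ± 34.6 CPM. Of 10 scaffold and trafficking genes of GABA and glycine receptors 5 were tested (median −0.13), with Gabarap at 647 ± 31.7 and 661 ± 54.3 CPM. Of 15 nicotinic chaperone, scaffold and modulator genes 8 were tested (median 0.12), with Ly6e, a surface protein of the Ly6 family, at 4047 ± 652 and 3487 ± 392 CPM.

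Markers of other cells in the sort were measured in the same libraries. Of 15 dendritic cell and macrophage genes 13 had a row, and their sum ran from 501 to 591 CPM in vehicle and from 619 to 815 in rAREG without overlap. Xcr1 and Clec9a, which define a dendritic cell subset, had no row analysed here, and Lyz2 was the most abundant, at 260 ± 27.3 and 314 ± 51.1 CPM. Of 8 B cell genes 5 had a row, with sums of 72 to 92.5 and 89.7 to 121 CPM, and Cd79a, Ms4a1 and Cd22 had none. The most abundant was Fcer2a, at 44.8 ± 6.63 and 59.4 ± 15.1 CPM. All 10 fibroblast genes had a row (sums 304 to 917 and 267 to 563 CPM, Dcn the most abundant at 472 ± 237 and 250 ± 79.8), as did all 9 endothelial genes (73.5 to 111 and 37.6 to 94.2 CPM, Esam at 25.3 ± 6.31 and 18.9 ± 4.41). All 14 tuft-like genes had one (638 to 921 and 452 to 1002 CPM, Lrmp at 151 ± 43.4 and 152 ± 33.2). No gene of these 5 lists passed. Log2 fold changes were above 0 in 11 of 11 tested dendritic cell and macrophage genes and 4 of 4 tested B cell genes. They were above 0 in 2 of 6 fibroblast, 0 of 6 endothelial and 5 of 12 tuft-like genes, against 49.2% of all genes. In the same order, 4, 2, 1, 0 and 0 genes had an unadjusted p under 0.05 (edgeR), against 13.3%. Of 14 neuroendocrine-like genes 12 had a row (2285 to 3214 and 885 to 4718 CPM). Among the 10 tested, 4 had a log2 fold change above 0, and the median was −0.18. Insm1 alone passed (edgeR, adjusted p = 0.044) and was higher in rAREG, at 97.6 ± 19.6 CPM in vehicle and 149 ± 24.3 in rAREG. The dissociation-response genes ran from 32623 to 41535 and from 25197 to 36491 CPM, and all 18 were tested, with a median log2 fold change of −0.43. Of the 18, 3 were above 0, against 49.2% of all genes, and 7 had an unadjusted p under 0.05 (edgeR), against 13.3%. Egr1 alone passed and fell, from 2955 ± 340 to 1950 ± 436 CPM (edgeR, adjusted p = 0.044). The part of the dissociation-response genes in the receptor values was not tested beyond the covariate fit given for Grin2c.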

How the data were processed

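TEC were sorted from enzymatically dissociated thymi and MARS-seq libraries were made, per the labels' protocols. Tools are listed without roles (STAR 2.5.2b, HTSeq, bcl2fastq, cutadapt and DESeq2, build mm10), per the submitters' processing notes. The authors deposited raw UMI counts, which were the basis of every test. The table also holds the authors' size-factor normalised signal, which times its factor gave the raw count in 100% of values (tolerance 1e-06), their regularised log2 values, and their log2 fold changes with p-values.

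Groups came from sample titles. The test was the robust quasi-likelihood F test of edgeR 4.0.16 in R 4.3.3, with TMM scaling, the filterByExpr filter and Benjamini-Hochberg adjustment over 11636 genes. An adjusted p under 0.05 is a call. The standard error is the log2 fold change over the square root of F. The fits were tested on simulated counts. Alternatives were DESeq2 1.42.0, limma 3.58.1 (voom), other scalings and filters, replicate blocks, covariates and leaving out each library.

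Members and lists were chosen with earlier results of these data known. Every receptor gene with a row is named, except 1 that is not reported here. Values per library are given for genes with an unadjusted p under 0.05, the most abundant gene of each family, and others chosen after their values were seen. From the other lists, genes that passed or else the most abundant one are named, with Nptx2, Slc6a4 and Gad1 added after their values were seen.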

Additional observations from a re-analysis of the deposited data

Results flagged for a closer look

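In 7 of the 64 groups of libraries examined for the receptor genes, 1 library lay far from the others of its group. Chance is meant to give about 1 in 20, but that rate does not hold for genes of few UMIs. Htr3a was flagged with 1, 1, 2 and 1 UMIs in vehicle, so 7 of 64 is not read as an excess. For Htr7, rAREG replicate 5 was at 40.6 CPM and the other rAREG libraries at 58.5 to 63.2. For Grm4, vehicle replicate 1 was at 1.01 CPM and the others at 5.05 to 5.50. In genes of few UMIs, Chrna5 was at 4.49 CPM in vehicle replicate 4 (others 0.477 to 1.10), Gabrr1 at 1.68 in the same library (others 0.477 to 0.550) and Htr3a at 0.955 in vehicle replicate 3 (others 0.503 to 0.561). In rAREG replicate 2, Gabrb2 was at 3.16 CPM (others 0 to 0.509) and Grik4 at 6.33 (others 3.71 to 4.22).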

How the results depend on the processing

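Under 20 alternatives the log2 fold change of Grin2c stayed between 0.58 and 0.81, and it was the only receptor gene called in any of them. The count of receptor genes called was 0 with the dissociation score and 0 to 1 when 1 library was left out. The other 12 tested receptor genes kept direction and had no call in 224 of 240 values. Among these, DESeq2 gave no adjusted p for Chrne, Gabrd, Grm4 and Htr1b, so a call could not be made there. The sign turned in 16. Grik5 was at 0.0038 with upper-quartile factors, 0.015 with total counts, 0.036 with library numbers as a replicate block and −0.12 to 0.051 when 1 library was left out. Gabbr1 was at −0.0015 with title numbers as a replicate block and −0.026 to 0.061 when 1 library was left out. Gabrp was at −0.019 with the dissociation score and −0.11 to 0.36, and Htr1b at −0.045 to 0.30, when 1 library was left out. The cause was not tested. The median of the tested receptor genes ran from 0.13 to 0.32.

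Over all genes, 122 were called. The count was 192 with DESeq2, 302 with the replicate block by title number, 44 with the dissociation score, and 18 to 230 when 1 library was left out. With the replicate block by library number it was 169. The title block leaves out rAREG replicate 5 and the library block rAREG replicate 4, whose numbers no vehicle library shares. Without a block, leaving out the same libraries gave 126 and 54. The labels do not say whether title or library numbers pair the groups. Libraries with the same title number correlated at −0.025 to 0.17 in their deviations from the group means, and those with the same library number at −0.036 to 0.080. The pair of title number 4, at 0.17, was the highest of all vehicle and rAREG pairs. These correlations do not settle the pairing, and the main test did not take the numbers as pairs. Grin2c passed under both blocks (adjusted p = 0.0034 and 0.011). At this depth 19 receptor genes did not pass the filter, and in the fit without it none of them was called.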
